A study of Homo sapiens with 2 samples.

Results

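DKK1, SP5, TNFRSF19, CCND1, CTNNB1 and AXIN1 are described here as genes of WNT signalling in a liver cancer cell line exposed to a compound. The genes were taken by symbol from the deposited table, where all 6 had values in both libraries, among 11511 genes with values in all. They were picked with these same values known, so what follows on the 6 genes is a description and carries no test. Hep3B, an established human hepatocellular carcinoma line obtained from ATCC, was profiled by RNA-seq as 1 library of cells treated with A4368 at 25 µM for 24 h and 1 library of untreated cells. Both cultures were kept in DMEM with fetal bovine serum. A4368 is known here only by this code, and no vehicle is stated. The comparison asks how exposure to the compound changes expression across the genome. With 1 library per group no difference has a replicate check, and no p-value was computed.

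In canonical WNT signalling, secreted WNT proteins bind Frizzled receptors with LRP5 or LRP6 and halt the destruction complex, which otherwise marks beta-catenin for degradation. Beta-catenin then enters the nucleus and binds TCF/LEF factors on target genes, several of which encode inhibitors of the pathway itself. In the liver the pathway sets the gene programme of hepatocytes around the central vein, and it is often activated by mutation in hepatocellular carcinoma. Of the 6 genes, DKK1, SP5, TNFRSF19 and CCND1 are known targets of the pathway in various cell types, while CTNNB1 and AXIN1 encode beta-catenin and a scaffold of the destruction complex.

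The sequence before the annotated start was compared because TCF/LEF factors bind DNA at a short word with the core CTTTG. RefSeq promoter windows on GRCh38.p14 were matched by symbol for 5 of the 6 genes, TNFRSF19 having 2 windows, and the 250 bases before each start were searched on both strands. CCND1 had no entry. The windows shown are those of SP5 and DKK1, which held the most matches to the core word, and that of CTNNB1, which held none. Capitals mark CTTTG or its complement CAAAG, and each sequence runs 5′ to 3′ on the strand of the gene, which is the plus strand in these cases. They lie at chr2:170715087-170715336 for SP5, chr10:52314031-52314280 for DKK1 and chr3:41199255-41199504 for CTNNB1.
SP5: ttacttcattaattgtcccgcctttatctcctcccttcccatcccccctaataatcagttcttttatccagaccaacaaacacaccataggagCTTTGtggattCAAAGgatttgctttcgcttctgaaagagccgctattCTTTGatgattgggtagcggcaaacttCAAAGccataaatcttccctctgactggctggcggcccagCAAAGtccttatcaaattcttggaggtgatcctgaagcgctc
DKK1: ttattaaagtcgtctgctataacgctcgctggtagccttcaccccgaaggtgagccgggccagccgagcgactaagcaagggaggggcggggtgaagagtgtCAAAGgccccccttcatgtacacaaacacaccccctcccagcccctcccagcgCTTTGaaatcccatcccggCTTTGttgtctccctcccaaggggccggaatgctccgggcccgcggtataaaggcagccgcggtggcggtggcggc
CTNNB1: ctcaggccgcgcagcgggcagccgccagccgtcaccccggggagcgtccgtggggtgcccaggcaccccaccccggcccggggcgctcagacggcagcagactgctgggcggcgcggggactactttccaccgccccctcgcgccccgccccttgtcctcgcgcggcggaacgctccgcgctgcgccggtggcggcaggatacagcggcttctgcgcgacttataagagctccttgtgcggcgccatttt

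The SP5 window held 5 matches to the core word, and the DKK1 window held 3. Among all 35116 windows, 42.1% held at least 1 match, 2.83% at least 3 and 0.0854% at least 5. Among the 12989 windows of genes kept in the expression comparison, these shares were 35.4%, 1.62% and 0.0231%. The longer word ATCAAAG, which contains the core word and so overlaps a core match, occurred once on the complementary strand in the SP5 window and in none of the other windows of the 6 genes, against 2.26% of all windows. The downstream TNFRSF19 window held 1 core match, and its upstream window, the CTNNB1 window and the AXIN1 window held none. Which start Hep3B cells use for TNFRSF19 was not measured.

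Base composition differed among the windows. The SP5 window had 45.6% G and C and the DKK1 window 62.8%, against a median of 64.8% over windows of kept genes. The CTNNB1 and AXIN1 windows had 74.4% and 77.6%. TNFRSF19 had 72.4% in its downstream and 49.6% in its upstream window, so the windows of target genes ranged from below to above that median. The GC box word GGGCGG, bound by factors of the SP family, was found 8 times in the AXIN1 window, 5 times in the downstream TNFRSF19 window and 3 times in the CTNNB1 window, but once in the DKK1 window and not in the SP5 window. At least 1 such word lay in 42.6% of all windows, at least 3 in 13.9% and at least 5 in 4.15%. The shares were not computed for windows of like base composition, so the part of composition in the match counts was not tested. These matches describe letters and are not binding sites.

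**Figure D1:**
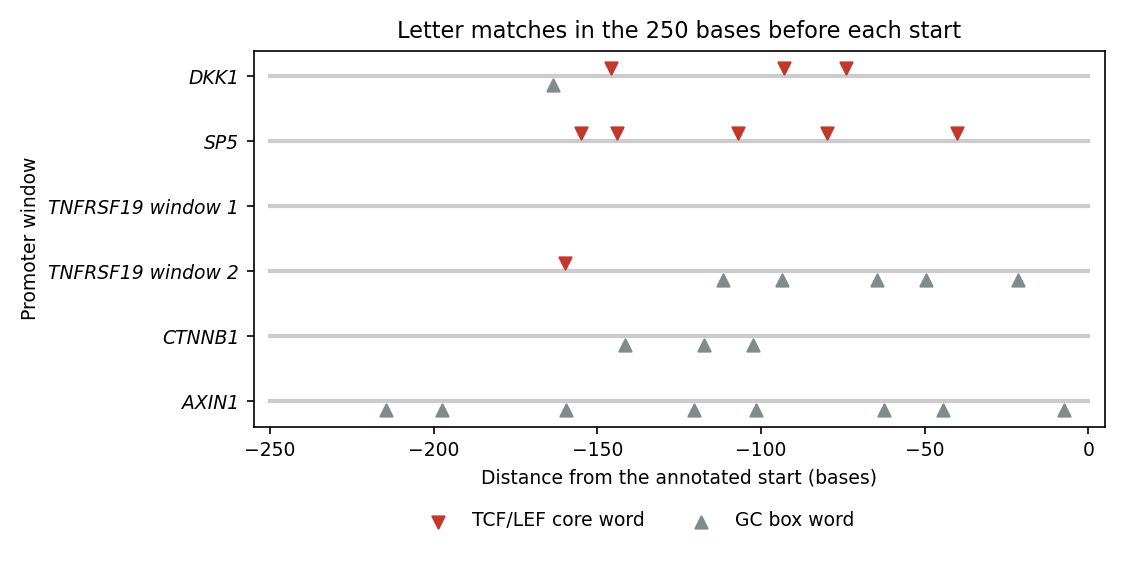
Positions of letter matches in the 250 bases before each annotated start, with the distance from the start in bases on the horizontal axis and a line for each window. Red triangles mark the TCF/LEF core word and grey triangles the GC box word. SP5 has 5 and DKK1 has 3 core matches, whereas the CTNNB1 and AXIN1 windows have only GC box words.

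Expression was read as FPKM, a fragment count corrected for transcript length and library size, so that levels can be compared between genes. The difference between the libraries is given as the log2 ratio, log2((A4368 + 1)/(Control + 1)) in FPKM, and folds are plain ratios of the deposited values. The pseudocount makes the log2 ratio of a low gene smaller than its plain fold. A filter on the mean of both libraries at 1 FPKM kept 11238 genes, the 6 genes among them. Values called rescaled are those after both libraries were brought to the same total without the 50 most abundant genes. That total lies above the deposited one, so all values rose before the pseudocount was added and it weighed less. Rescaled ratios of low genes therefore reflect a smaller effective pseudocount as well as the scaling. The depth of the libraries is unknown, so no counting error can be attached to any value. The libraries carried the hepatocyte and hepatoma markers fixed for the check, all 8 with values, with a summed level of 12164 FPKM in the A4368 library and 12636 FPKM in the control. None of 6 endothelial markers had a value, and stellate and fibroblast markers, 2 of 8 with values, summed to 13.5 FPKM with A4368 and 18.9 FPKM in the control. Of 5 leukocyte markers 3 had values, with a sum of 39.9 FPKM with A4368 and 50.1 FPKM in the control, among which the lysozyme gene LYZ was at 9.48 FPKM with A4368 and 17.6 FPKM in the control. The defining genes PTPRC, CD3E, COL1A1 and PDGFRB had no value, and the part of these markers in the results was not tested.

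The 4 target genes had lower values with A4368 and the 2 genes of the signalling machinery had slightly higher values. DKK1 and SP5 were lower by at least 1.5-fold on the log2 scale, a limit passed downward by 2.12% of the 11238 genes and upward by 1.08%. As counts these were 238 lower and 121 higher genes, and 260 lower and 259 higher on rescaled values. By any amount, 52% of the kept genes were higher and 48% lower, or 60.9% and 39.1% on rescaled values. Because the 6 genes were chosen on this contrast, nothing is read from their count. In RNA from whole cultures, fewer cells that express a gene and less of its RNA per cell cannot be told apart.

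**Figure D2:**
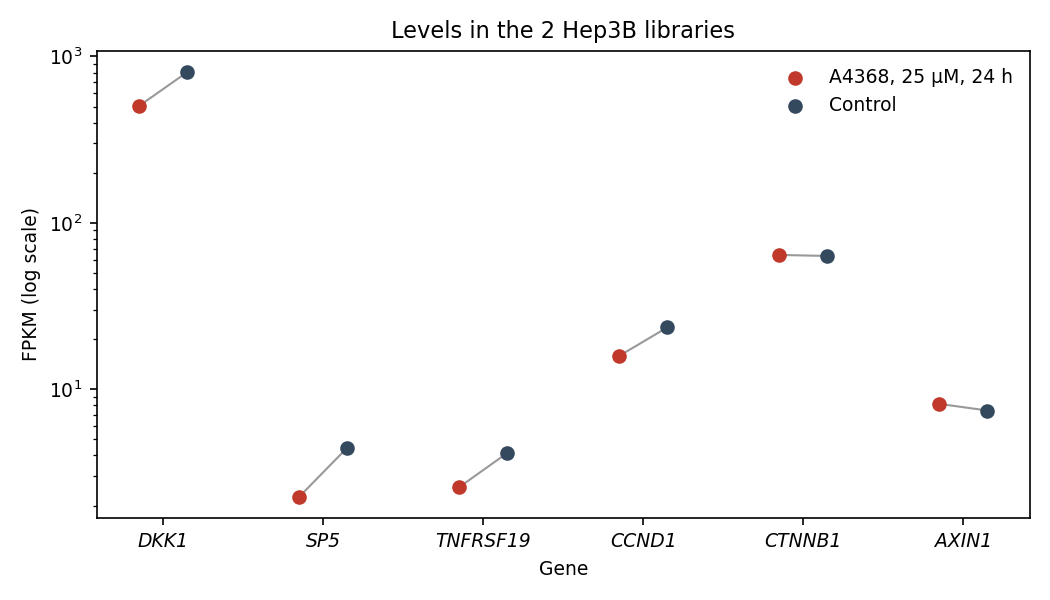
Level of each of the 6 genes in FPKM on a log scale, with A4368 in red at the left and control in dark blue at the right of each pair. Each point is 1 library. DKK1, SP5, TNFRSF19 and CCND1 slope upward to the control, while CTNNB1 and AXIN1 are nearly level.

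DKK1 encodes Dickkopf 1, a secreted antagonist that binds LRP5 and LRP6 and blocks WNT reception. Its level was 506 FPKM in A4368-treated cells and 806 FPKM in control cells, which is 1.59-fold lower with A4368, at a log2 ratio of -0.67. It was the most abundant of the 6 genes by far, in position 140 of 11511 with A4368 and in position 91 in the control. Of the 192 other genes with a mean within 2-fold of that of DKK1, 0 had a log2 ratio as low, and their ratios had an SD of 0.13 around a median of -0.09. The nearest was AHSG, the gene of the plasma protein fetuin A, at 586 FPKM with A4368 and 864 FPKM in the control. TMSB4X, which encodes an actin-binding thymosin, followed at 955 FPKM with A4368 and 1370 FPKM in the control, and RPS27L at 288 FPKM with A4368 and 394 FPKM in the control. DKK1 stood at 5.66% of the FPKM of ALB, the albumin gene, with A4368 and at 8.78% in the control. Of the distinct 31-base words in DKK1 transcripts, 8.39% also occur in another GENCODE gene, mostly the antisense gene PRKG1-AS1, so reads of that stretch may be divided between the genes.

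SP5 encodes a zinc finger transcription factor of the SP family that is induced by WNT signalling in many tissues. It was at 2.26 FPKM with A4368 and 4.46 FPKM in the control, which is 1.97-fold lower as a plain ratio and -0.74 as a log2 ratio, the lowest of the 6. The gene was weakly expressed, in position 10291 of 11511 with A4368 and 9001 in the control. Among the 2687 other genes with a mean within 2-fold, 55 (2.05%) had a log2 ratio as low or lower. Their ratios had an SD of 0.31, wider than near DKK1. CEP41, a centrosomal protein gene, UGT2B15, a glucuronosyltransferase gene, and SLC27A5, a bile acid ligase gene, had the ratios closest to SP5, each within 0.01 log2 units. With only 1 ratio per gene, such likeness says little.

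SP8, a relative of SP5, was at 6.45 FPKM with A4368 and 11.2 FPKM in the control, 1.74-fold lower, with a log2 ratio of -0.71. The level of SP5 was 35.1% of that of SP8 with A4368 and 39.9% in the control. SP5 and SP8 were the 2 of 17 kept SP and KLF genes that passed the 1.5-fold limit, which 2.12% of all kept genes passed downward. SP5 was chosen on this contrast, and without it SP8 alone among 16 genes passed. Neither SP5 nor SP8 passed it with a pseudocount of 5 FPKM, where SP8 was at -0.50. The widely used activators SP1 and SP3 differed little, SP1 at 16.5 FPKM with A4368 and 15.5 FPKM in the control, and SP3 at 44.7 FPKM with A4368 and 47.2 FPKM in the control. KLF6, a zinc finger factor gene that is also an immediate early gene, was at 17.7 FPKM with A4368 and 25.1 FPKM in the control. KLF2 was at 5.50 FPKM with A4368 and 4.31 FPKM in the control, and KLF3, second to SP3 in the list by the mean of both libraries, at 22.2 FPKM with A4368 and 24.6 FPKM in the control. The list as a whole had 11 lower and 6 higher members and a median log2 ratio of -0.11, beside 0.01 over all kept genes. Without SP5 it had 10 lower and 6 higher and a median of -0.09, while 48% of all kept genes were lower.

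TNFRSF19, also called TROY, encodes a receptor of the tumour necrosis factor receptor family that is found in WNT-dependent stem cells. Its level was 2.59 FPKM with A4368 and 4.15 FPKM in the control, 1.60-fold lower as a plain ratio, while the log2 ratio of -0.52 did not reach the limit. Of 2687 other genes of like level, 118 (4.39%) had a log2 ratio as low or lower. LGR5, the R-spondin receptor that marks such stem cells, stood at 5.23 FPKM with A4368 and 5.54 FPKM in the control, so that TNFRSF19 was at 49.4% of LGR5 with A4368 and at 74.9% in the control. The genes of like level closest in ratio were PITPNM3, TCEA2 and CSF1. CSF1, the macrophage colony-stimulating factor gene, was at 1.42 FPKM with A4368 and 2.48 FPKM in the control.

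CCND1 encodes cyclin D1, which activates CDK4 and CDK6 at the entry into the cell cycle. It was at 15.9 FPKM with A4368 and 23.5 FPKM in the control, 1.48-fold lower, with a log2 ratio of -0.54, just inside the limit. Of 4425 other genes with a mean within 2-fold, 98 (2.21%) had a log2 ratio as low or lower. WWC1, CA12 and FAM64A were the closest in ratio, and WWC1, which encodes the Hippo pathway protein KIBRA, was at 16.4 FPKM with A4368 and 24.2 FPKM in the control. CCND1 shares 9.23% of its words with other genes, mostly its neighbour LTO1, which the table lists as ORAOV1 at 4.03 FPKM with A4368 and 4.37 FPKM in the control.

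The other D cyclins differed less between the libraries than CCND1. CCND3 was at 22.7 FPKM with A4368 and 22.7 FPKM in the control, so that CCND1 was at 70.1% of CCND3 with A4368 and at 103% in the control. CCND2 was lowly expressed, at 1.97 FPKM with A4368 and 2.36 FPKM in the control. CDK4, the main partner kinase, was at 131 FPKM with A4368 and 161 FPKM in the control, although 38.6% of its words occur in other genes, mainly TSPAN31. CDK6 was at 29.4 FPKM with A4368 and 28.1 FPKM in the control, so the partner kinases differed in opposite directions.

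The highest ratios of the G1 list belonged to CDKN2D and CDKN1A, which encode inhibitors of cyclin-dependent kinases. CDKN2D, which encodes the CDK4 and CDK6 inhibitor p19, was at 4.94 FPKM with A4368 and 2.10 FPKM in the control, a log2 ratio of 0.94. CDKN1A, which encodes the inhibitor p21, was at 11.6 FPKM with A4368 and 6.56 FPKM in the control, a log2 ratio of 0.73. Both passed the 1.5-fold limit upward, 2 of 19 kept members, and 0 passed it downward, beside 1.08% of all kept genes upward and 2.12% downward. With a pseudocount of 5 FPKM neither passed, at 0.49 for CDKN2D and 0.52 for CDKN1A, and a filter of 5 FPKM removed CDKN2D. CDKN1C, which encodes p57, was at 210 FPKM with A4368 and 156 FPKM in the control, 1.34-fold higher. Other inhibitor genes differed less, CDKN2A at 88.1 FPKM with A4368 and 93.4 FPKM in the control, and CDKN1B at 46.0 FPKM with A4368 and 42.0 FPKM in the control. The level of CDKN1A was 72.7% of that of CCND1 with A4368 and 27.9% in the control. Across the list 9 members were higher and 10 lower, or 7 lower on rescaled values, and the median log2 ratio was -0.0053.

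CTNNB1 encodes beta-catenin, which is both the transcriptional partner of TCF/LEF factors and a link between cadherins and alpha-catenin at cell junctions. It was at 64.1 FPKM with A4368 and 63.2 FPKM in the control, a log2 ratio of 0.02. Among 2257 other genes with a mean within 2-fold, 872 (38.6%) had a ratio as high or higher, which puts CTNNB1 well inside their spread, an SD of 0.20. SSNA1, ZMAT2 and FUBP3 had ratios within 0.01 log2 units of it. RNA levels do not show the amount or location of beta-catenin protein, which the pathway controls mainly by degradation.

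The junction partners of beta-catenin differed modestly in either direction. JUP, which encodes plakoglobin, the closest relative of beta-catenin, was at 91.1 FPKM with A4368 and 108 FPKM in the control, so that CTNNB1 was at 70.4% of JUP with A4368 and at 58.3% in the control. The N-cadherin gene CDH2 was at 33.6 FPKM with A4368 and 27.7 FPKM in the control, and the E-cadherin gene CDH1 at 35.1 FPKM with A4368 and 33.4 FPKM in the control. The p120-catenin gene CTNND1 was at 88.8 FPKM with A4368 and 95.5 FPKM in the control. The alpha-catenin gene CTNNA1 was at 109 FPKM with A4368 and 114 FPKM in the control. Of 6 kept junction genes 3 were higher and 3 lower, and 0 passed the 1.5-fold limit.

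AXIN1 encodes the scaffold that holds the kinases of the destruction complex and beta-catenin together. It was at 8.17 FPKM with A4368 and 7.45 FPKM in the control, a log2 ratio of 0.12. Of 4074 other genes of like level, 1433 (35.2%) had a ratio as high or higher, and DOPEY2, SPAST and EIF4G3 had nearly the same ratio. CTNNB1 transcripts were 7.86 times as abundant per length as those of AXIN1 with A4368 and 8.48 times in the control. AXIN2, the feedback scaffold and a common readout of the pathway, was not analysed here.

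**Figure D3:**
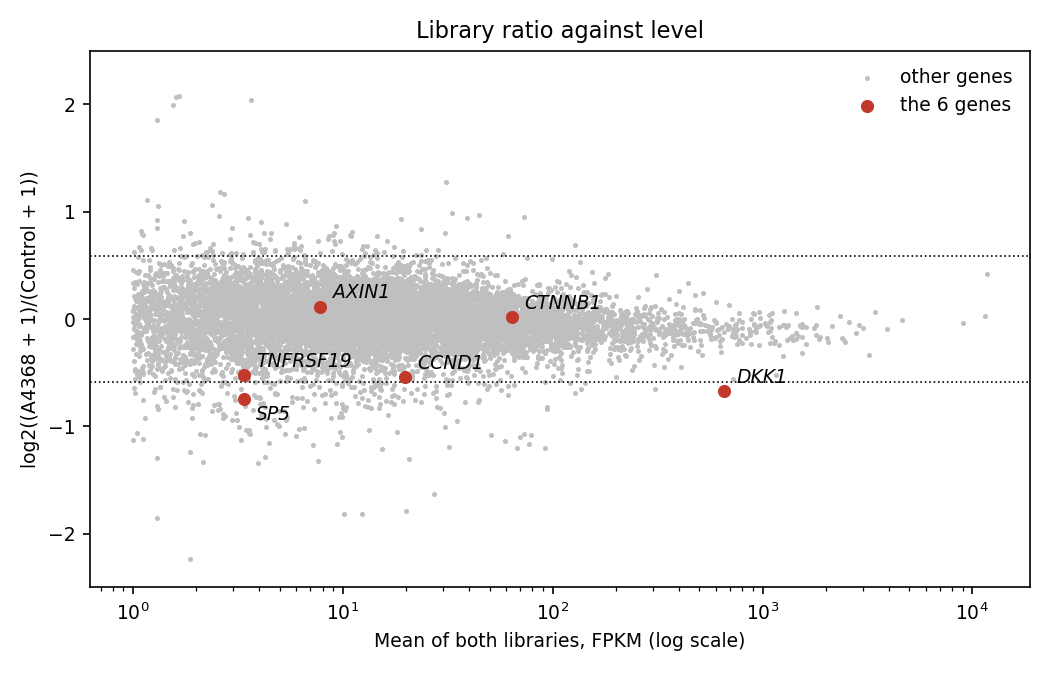
Log2 ratio of A4368 over control (vertical axis) against the mean of both libraries in FPKM (horizontal log axis) for 11238 genes in grey and the 6 genes in red. Dotted lines mark 1.5-fold, and 3 genes lie beyond the vertical axis at 2.5. DKK1 sits below all genes of its level, SP5 below the lower line, TNFRSF19 and CCND1 just above that line, and CTNNB1 and AXIN1 in the middle of the cloud.

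The rest of the pathway, together with G1 control genes and SP and KLF factors, was followed through 13 lists. They hold 203 distinct genes, of which 131 were kept, and a gene can stand on several lists. Without the 6 genes 125 remained, of which 51 (40.8%) were higher and 74 (59.2%) lower, beside 52% higher and 48% lower over all kept genes. On rescaled values 65 (52%) were higher and 60 (48%) lower, beside 60.9% higher and 39.1% lower over all kept genes. In both forms the share of higher genes was smaller than over all kept genes. Past the 1.5-fold limit 2 of the 125 (1.60%) were lower and 2 (1.60%) were higher, beside 2.12% and 1.08% over all kept genes. The lower ones were the WNT target SOX9 and the SP family gene SP8, and the higher ones were the G1 genes CDKN1A and CDKN2D. The shares past the limit lie near those of all genes. The median log2 ratio of the 125 was -0.02 as deposited and 0.02 on rescaled values, beside 0.01 and 0.06 over all kept genes.

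Ligands and receptors carried no ratio past the limit as deposited. Of 19 WNT ligand genes WNT3 and WNT7B had values, WNT3 at 2.30 FPKM with A4368 and 2.23 FPKM in the control, and WNT7B at 2.78 FPKM with A4368 and 2.80 FPKM in the control. WLS, the carrier that brings WNT proteins to the cell surface, was at 3.27 FPKM with A4368 and 4.32 FPKM in the control. Of 10 kept receptor and coreceptor genes, 5 were higher and 5 lower, or 4 lower on rescaled values. FZD5 and LRP5 were the most abundant, FZD5 at 72.8 FPKM with A4368 and 84.8 FPKM in the control and LRP5 at 80.4 FPKM with A4368 and 73.2 FPKM in the control. Among the kept Frizzled genes of low level, FZD1 had the largest ratio, at 2.44 FPKM with A4368 and 1.49 FPKM in the control. Its log2 ratio was 0.47, but 0.62 on rescaled values and 0.67 with a pseudocount of 0.1 FPKM, both past the limit. FZD2, FZD4 and FZD8 had log2 ratios of -0.29, -0.28 and -0.25. Coreceptor LRP6, the target of DKK1 protein, was at 10.7 FPKM with A4368 and 8.90 FPKM in the control.

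In the R-spondin axis, which tunes the number of receptors at the surface, 3 of 4 kept genes had lower values, or 2 on rescaled values. The lower genes LGR5, RNF43 and ZNRF3 had log2 ratios of -0.07, -0.01 and -0.14. They are counted again in the target lists below. The share lower over all kept genes was 48%, or 39.1% on rescaled values. LGR4 was the gene of the axis with a higher deposited value, at 65.4 FPKM with A4368 and 56.3 FPKM in the control. The ubiquitin ligase genes RNF43 and ZNRF3, both feedback targets, were at 15.8 and 8.26 FPKM with A4368 and at 16.0 and 9.18 FPKM in the control, and 73.4% of the words of RNF43 occur in other genes.

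Among secreted and surface antagonists 5 of 6 kept genes were lower (4 on the rescaled values), and the median log2 ratio was -0.31. Without DKK1, which was chosen on this contrast, 4 of 5 were lower (3 on the rescaled values), at a median of -0.26. The share lower over all kept genes was 48%, or 39.1% on rescaled values. Beside DKK1, TRABD2A, which encodes a metalloprotease that cleaves WNT proteins, was at 5.79 FPKM with A4368 and 9.07 FPKM in the control, a log2 ratio of -0.57. IGFBP4, the gene of a binding protein of insulin-like growth factors that can also block WNT receptors, was at 1.18 FPKM with A4368 and 1.79 FPKM in the control. NOTUM, which encodes an enzyme that inactivates WNT proteins by removing their lipid, was at 0.911 FPKM with A4368 and 1.28 FPKM in the control. KREMEN1, the gene of a receptor for DKK1 protein, was the higher one, by 1.09-fold. DKK1 alone made up most of the summed level of the list, 519 FPKM with A4368 and 824 FPKM in the control.

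The destruction complex and its regulators were close to balanced, with 10 higher and 9 lower of 19 kept, or 5 lower after the rescaling, and 0 past the limit. The kinase genes were nearly level, GSK3B at 17.0 FPKM with A4368 and 16.4 FPKM in the control, and GSK3A at 38.2 FPKM with A4368 and 37.8 FPKM in the control. FBXW11, which encodes a ubiquitin ligase adaptor for beta-catenin, had the lowest ratio of -0.39 at 20.2 FPKM with A4368 and 26.9 FPKM in the control. DVL1, a Dishevelled gene that relays the receptor signal, had the highest ratio of 0.33 at 27.2 FPKM with A4368 and 21.4 FPKM in the control. AMER1, an AXIN-binding scaffold gene, was at 0.944 FPKM with A4368 and 1.48 FPKM in the control.

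Of 22 kept genes of TCF/LEF factors and nuclear partners, 16 were lower and 6 higher, and the rescaling left 14 lower. The share lower over all kept genes was 48% as deposited and 39.1% on rescaled values. The median log2 ratio of the list was -0.08, and 0 of its genes were past the limit. All 4 TCF/LEF genes had lower values, both as deposited and rescaled. TCF7L2 was at 7.33 FPKM with A4368 and 8.89 FPKM in the control, and TCF7L1 at 7.47 FPKM with A4368 and 8.30 FPKM in the control. TCF7 was at 4.08 FPKM with A4368 and 4.99 FPKM in the control, and LEF1 at 1.52 FPKM with A4368 and 1.62 FPKM in the control. The corepressor gene TLE4 had the lowest ratio of the list, -0.42, at 3.68 FPKM with A4368 and 5.27 FPKM in the control. CTNNBIP1, which encodes an inhibitor of the binding of beta-catenin to TCF, was at 27.9 FPKM with A4368 and 35.8 FPKM in the control. The coactivator gene PYGO2 had the highest ratio, 0.24, at 33.5 FPKM with A4368 and 28.2 FPKM in the control.

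Most targets of the pathway other than DKK1, SP5, TNFRSF19 and CCND1 differed by less than 1.5-fold. Over the general and liver target lists together, 21 such genes were kept, 14 lower and 7 higher, and the rescaling left 13 lower. Of all kept genes 48% were lower, or 39.1% on rescaled values. The median log2 ratio of the 21 was -0.10, beside 0.01 over all kept genes. The gene that passed the limit was SOX9, a progenitor and biliary transcription factor gene, at 20.1 FPKM with A4368 and 41.2 FPKM in the control. Its log2 ratio lay at the 2-fold limit and met it as deposited, but not after centring on the median, on rescaled values (-0.97) or with a pseudocount of 5 FPKM (-0.88). Over all kept genes 0.436% passed 2-fold downward and 0.116% upward. These shares stand for 49 lower and 13 higher genes, against 66 and 31 on rescaled values. BMP4, a growth factor gene, was 1.43-fold lower, with a log2 ratio of -0.48. The transcription factor gene MYC was at 60.2 FPKM with A4368 and 65.1 FPKM in the control.

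Some targets had higher values. ID2, second to DKK1 by mean level in the general list, was at 169 FPKM with A4368 and 166 FPKM in the control. NKD2, a feedback inhibitor gene that binds Dishevelled, was at 5.40 FPKM with A4368 and 3.37 FPKM in the control, a log2 ratio of 0.55. PPARD, a nuclear receptor gene, was at 12.3 FPKM with A4368 and 8.74 FPKM in the control. GLUL, the glutamine synthetase gene that beta-catenin controls around the central vein, was at 112 FPKM with A4368 and 99.8 FPKM in the control. OAT, an ornithine aminotransferase gene, was at 33.7 FPKM with A4368 and 31.6 FPKM in the control. HAL, which encodes the histidine-degrading enzyme histidase, was lower at 2.78 FPKM with A4368 and 3.95 FPKM in the control. The target lists do not record whether the pathway raises or lowers a gene, so their counts of lower genes may mix both kinds. TBX3, another liver target, was at 5.05 FPKM with A4368 and 4.13 FPKM in the control. The liver list had 7 lower and 4 higher of 11 kept, or 6 lower on rescaled values, with SP5 and TNFRSF19 at its lower end. Without SP5 and TNFRSF19, which were chosen on this contrast, 5 of 9 were lower, or 4 on rescaled values. All lower genes of the liver list except HAL also stand on the general list, so their counts repeat it. Among genes on the liver list alone, GLUL, TBX3, OAT and RGN had higher deposited values and HAL had a lower one. Of all kept genes 48% were lower, or 39.1% on rescaled values.

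**Figure D4:**
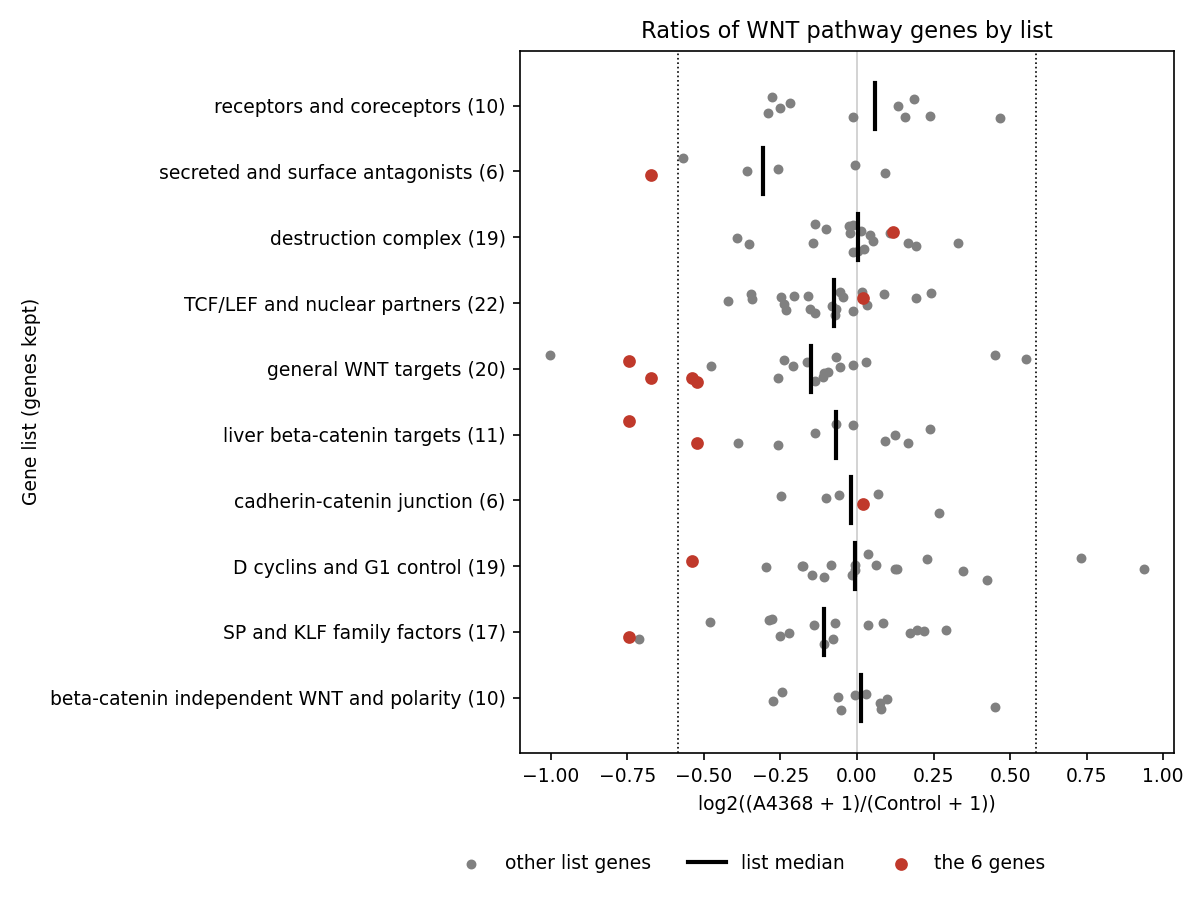
Log2 ratio of A4368 over control for every kept gene of the 10 lists with at least 5 kept genes, with the 6 genes in red, other genes in grey and the list median as a black bar. Dotted lines mark 1.5-fold and vertical spread within a row has no meaning. The destruction complex lies around 0, whereas SP5, DKK1, CCND1 and TNFRSF19 lie near or beyond the lower line of the target lists with SOX9 further left.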

How the data were processed

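The authors' deposited table gives a gene symbol and 2 values per line, and its header names no unit. Its values are read here as FPKM because TopHat2 2.0.12, Bowtie2 2.2.3, Cufflinks and hg19 are named in the submitters' processing notes. The annotation was not given in the sources used here. Of 24302 lines, 11511 held values, none with a mean under 0.496 FPKM, so an earlier filter on low genes is likely. Log2 ratios with a pseudocount of 1 FPKM were computed in Python 3.11.15 with pandas 2.3.3 and numpy 2.4.6 after removing 273 genes with a mean under 1 FPKM. The calculation was tested on simulated data with 2-fold changes and little noise. Such a run checks the code alone and does not show how reliable the ratios given here are.

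The 6 genes and all lists were chosen with earlier results of these data known. List genes were named from those past 1.5-fold, the 4 of largest ratio and the 2 of highest mean in each list. Any gene of the destruction complex and nuclear lists could also be named. NFATC1 of the polarity list met the rule but is not described. Genes most like a member were the 3 of nearest log2 ratio with a mean within 2-fold. Others (CCND2, CCND3, CDK6, CDKN1B, CDKN2A, LRP6, KREMEN1, MYC, BMP4, PPARD, TBX3, RGN, SP1 and sequence partners) were named after their values were seen. Shared sequence was counted in words of 31 bases over GENCODE 29 transcripts, on either strand. Cufflinks divides reads of overlapping genes by likelihood, which can shift their values. The alternatives changed the pseudocount, the filter, the scaling and the fold limit.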

Additional observations from a re-analysis of the deposited data

How the results depend on the processing

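Under 6 alternatives the direction of all 6 genes held, each log2 ratio staying on its side of 1.5-fold except that SP5 was at -0.38 with a pseudocount of 5 FPKM and TNFRSF19 at -0.66 with a pseudocount of 0.1 FPKM. SP5 and TNFRSF19 have no value at a filter of 5 FPKM. The log2 ratio of DKK1 ranged from -0.67 to -0.62, that of CCND1 from -0.56 to -0.45, that of CTNNB1 from 0.02 to 0.07 and that of AXIN1 from 0.08 to 0.17.

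Counts over all genes depended on low values. With a pseudocount of 0.1 FPKM, 259 genes were higher and 369 lower by 1.5-fold, and 38 and 102 by 2-fold. With a pseudocount of 5 FPKM, 20 were higher and 78 lower by 1.5-fold, and 2 and 15 by 2-fold. At a filter of 5 FPKM, 58 were higher and 140 lower by 1.5-fold, and 2 and 28 by 2-fold. When each library was scaled to the same total over all but the 50 highest genes, there were 259 higher by 1.5-fold and 31 by 2-fold, and the median ratio of all genes was 0.06, with 60.9% of genes higher. The scaling also lowered the weight of the pseudocount, and the effects of scaling and pseudocount were not separated. With a pseudocount of 0.1 FPKM, FZD1, NKD2, TRABD2A and AMER1 also passed 1.5-fold, FZD1 and NKD2 also after the rescaling, and with a pseudocount of 5 FPKM SP8, CDKN1A and CDKN2D no longer did.

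The median of the antagonists, DKK1 included, was -0.51 with a pseudocount of 0.1, -0.11 with 5 and -0.62 at a filter of 5 FPKM, which leaves 2 genes. That of SP and KLF factors was -0.22 at this filter. Medians near 0 changed sign for liver targets (0.038 at the filter of 5 FPKM), junction genes (0.030) and G1 genes (0.044) after the rescaling, and polarity genes (-0.0064) with no filter. No paired analysis was possible because each group has 1 library.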

Other observations

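Genes of WNT signalling that does not pass through beta-catenin, which orients cells and acts on the cytoskeleton, were balanced, with 5 higher and 5 lower of 10 kept (4 lower on rescaled values) and 0 past 1.5-fold. SCRIB, a cell polarity scaffold gene, had the highest ratio of 0.45, at 26.3 FPKM with A4368 and 19.0 FPKM in the control. The polarity gene PRICKLE3 was at 1.92 FPKM with A4368 and 2.53 FPKM in the control. The GTPase genes RAC1 and RHOA were the most abundant, RAC1 at 378 FPKM with A4368 and 447 FPKM in the control, and RHOA at 183 FPKM with A4368 and 190 FPKM in the control.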
